A study of Mus musculus with 8 samples.

Results

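Signals of 9 chemokine receptor genes (Ccr2, Ccr4, Ccr7, Ccr8, Cxcr3, Cxcr4, Cxcr5, Cxcr6 and Cx3cr1) were compared between spleen NK cells of mice that carried a ChAT-eGFP reporter and were sorted with or without its fluorescence. The members are the array probes whose RefSeq accession maps to 1 of these 9 symbols, which gave 12 of the 26762 probes named with a gene and 9 of 20284 named genes. NK cells were first enriched magnetically and then divided by eGFP, which reports choline acetyltransferase (ChAT), the enzyme that makes acetylcholine. The ChAT+ and the ChAT- group held 4 pools each, and each pool combined the cells of 2 to 4 mice. Both groups came from reporter animals with no treatment named in the labels, and no strain, sex or age of the mice is given there. It is not stated whether some mice fed more than 1 pool of a group, or same-numbered pools of both groups. The p-values therefore rest on the spread among these pools, part of which may be technical. The reporter, and not the protein itself, defined the groups.

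Chemokine receptors are receptors of the cell surface that couple to inhibitory G proteins and steer leukocytes along gradients of secreted chemokines. Ccr4, Ccr8, Cxcr3 and Cxcr6 guide effector lymphocytes into inflamed tissue, Ccr7 and Cxcr5 guide cells within lymphoid organs, Cxcr4 retains cells in bone marrow, and Ccr2 and Cx3cr1 are best known on monocytes and on subsets of NK cells. In NK cells, Cxcr3 and Cxcr6 take part in homing to liver and inflamed sites, and Cx3cr1 marks mature cells.

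Ccr4 had the largest difference of the 8 receptors tested: its fitted signal was 2.77 log2 units higher in ChAT+ than in ChAT- pools (1.70 with normexp background correction). It alone passed the threshold. Its probe was above background on 1 of 4 ChAT- arrays, so the size of the difference rests on readings at the detection limit. Cxcr5, Cxcr6 and Cxcr3 had mean signals 0.53 to 0.74 log2 units higher in ChAT+ pools. Cxcr4, Ccr2 and Cx3cr1 had means 0.45 to 0.65 log2 units lower, but none of these 6 passed in the fit reported. All but Cxcr4 passed when same-numbered pools were fitted as a block (a replicate block), but the labels name nothing that such pools shared. The block also raised the calls over all 13607 genes, from 383 higher and 428 lower to 1002 higher and 1340 lower. Ccr7 differed by 0.17. Ccr8 lay near the detection limit and was not among the genes tested. Every value below is the log2 of the background-subtracted fluorescence minus the array's own 75th percentile, so 0 is the 75th percentile of an array and a step of 1 is a doubling. A probe's signal also depends on how well its sequence hybridises, so signals of different probes were not set against each other.

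The sort was checked first on its own gene. Chat had log2 signals of 3.70, 4.10, 3.72 and 3.48 in ChAT+ replicates 1 to 4 and of 2.64, 3.12, 2.32 and 2.51 in ChAT- replicates 1 to 4. All ChAT+ pools lay above all ChAT- pools, by 1.105 on average (SE 0.20, limma adjusted p = 0.0201). The gene was still well above the 75th percentile in the ChAT- pools, sorted without the reporter's fluorescence. Without ChAT+ replicate 3 or without ChAT- replicate 4 the difference was 1.11 or 1.06 and no longer passed (limma adjusted p = 0.0623 and 0.0646). Between 50.2% and 63.2% of spots were well above background on each array, lowest for ChAT+ replicate 3. The ChAT+ arrays were on slide 1 and the ChAT- arrays on slide 2, each with its own scan, so slide and group cannot be told apart.

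Of the 13607 genes tested, 383 (2.81%) were called higher and 428 (3.15%) lower in ChAT+ pools at a limma adjusted p under 0.05, and against that background 1 of the 8 tested receptors was called higher and 0 lower. With each array centred on its median the counts over all genes were 211 higher and 119 lower. The counts of 383 and 428 moved by more than 1.5 times without ChAT+ replicate 1, 3 or 4 (155, 100 and 197 higher; 196, 122 and 284 lower) or without ChAT- replicate 2, 3 or 4 (181, 148 and 94 higher; 248, 218 and 116 lower). The limma p before adjustment was under 0.05 for 6 of the 8 receptors, 4 higher and 2 lower, and for 24.8% of all genes. The 4 ChAT+ values and the 4 ChAT- values did not overlap for 3 of the 8 receptors (Ccr4, Cxcr5 and Cxcr4), against 15.5% of all genes tested. The median difference of the 8 receptors was 0.35, beside 0.03 over all genes.

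**Figure D1:**
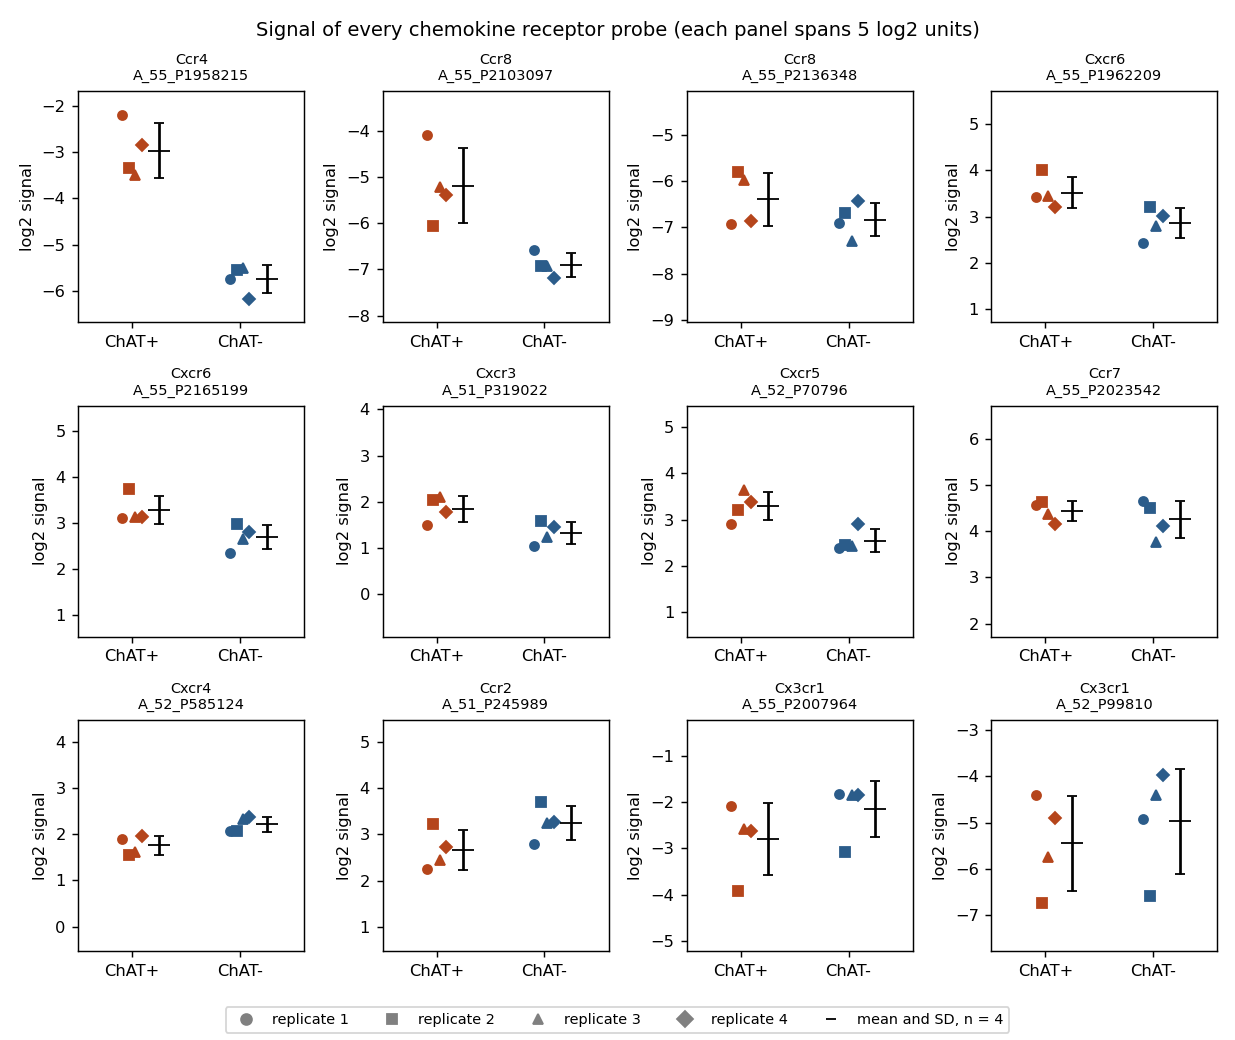
Log2 signal (array's 75th percentile = 0) of each of the 12 probes of the 9 chemokine receptors, with 4 ChAT+ and 4 ChAT- pools as points whose shape gives the replicate number, and the mean and SD (n = 4) as a bar. Each panel spans 5 log2 units around its own centre; the Ccr4 groups lie apart, from -3.49 to -2.19 against -6.17 to -5.50, and the 2 Cx3cr1 panels show replicate 2 lowest in both groups.

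Promoter sequences of 3 members are shown because of what their genes did: Ccr4 as the receptor that rose, and Cxcr6 and Ccr2 as members of 1 run of neighbouring receptor genes whose mean differences had opposite signs. They are from RefSeq on GRCm38.p6, 5′ to 3′ on the strand of the gene, and span 250 bases before to 50 bases after the start of the gene: chr9:114496495-114496794 on the minus strand for Ccr4, chr9:123806227-123806526 on the plus strand for Cxcr6 and chr9:124101933-124102232 on the plus strand for Ccr2. Capitals mark a match to a motif described after the sequences.
Ccr4: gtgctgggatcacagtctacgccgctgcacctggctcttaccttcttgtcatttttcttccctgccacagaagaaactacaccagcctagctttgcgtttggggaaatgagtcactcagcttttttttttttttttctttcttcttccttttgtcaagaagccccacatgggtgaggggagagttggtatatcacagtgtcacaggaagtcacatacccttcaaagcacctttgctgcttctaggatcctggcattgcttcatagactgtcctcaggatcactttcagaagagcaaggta
Cxcr6: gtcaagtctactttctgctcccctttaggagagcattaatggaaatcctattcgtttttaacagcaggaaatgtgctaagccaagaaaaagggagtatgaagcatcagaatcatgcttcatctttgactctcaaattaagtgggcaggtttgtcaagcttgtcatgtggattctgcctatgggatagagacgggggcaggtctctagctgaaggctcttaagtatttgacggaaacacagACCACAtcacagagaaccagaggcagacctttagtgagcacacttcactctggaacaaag
Ccr2: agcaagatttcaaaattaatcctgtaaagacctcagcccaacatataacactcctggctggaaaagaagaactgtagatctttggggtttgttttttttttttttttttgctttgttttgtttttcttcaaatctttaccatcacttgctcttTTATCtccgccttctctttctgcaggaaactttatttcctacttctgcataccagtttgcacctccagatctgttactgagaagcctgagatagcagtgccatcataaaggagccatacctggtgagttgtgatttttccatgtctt
A promoter entry was found for 7 of the 9 members. Short core motifs of transcription factor families that act in lymphocytes were searched on both strands, namely GATAA for GATA factors, TGTGGT for RUNX factors, GGTGTG for T-box factors and AGGTCA for ROR factors. None of these motifs overlapped another in the sequences shown. The Ccr4 window held none of them, which says only that these letters are not in this window. The Cxcr6 window held the RUNX letters, read on the opposite strand, at bases 241 to 246. That of Ccr2 held the GATA letters, also on the opposite strand, at bases 154 to 158. Such matches are frequent: of 32851 promoter windows of this length, 25.4% held GATAA, 16.8% TGTGGT, 19.0% GGTGTG and 16.3% AGGTCA. Among the other 4 entries, Ccr8 and Cxcr4 held a GATAA match, Cx3cr1 held 1 TGTGGT match and Cxcr3 held 2.

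Ccr4 is the receptor for Ccl17 and Ccl22 and is known from type 2 helper, regulatory and skin-homing T cells. Its probe A_55_P1958215 had log2 signals of -2.19, -3.35, -3.49 and -2.85 in ChAT+ replicates 1 to 4 and of -5.75, -5.55, -5.50 and -6.17 in ChAT- replicates 1 to 4. Every ChAT+ pool lay at least as high as -3.49 and every ChAT- pool at or under -5.50, so the groups were far from overlapping. As fluorescence before scaling, the ChAT+ arrays read 519.4, 172.0, 164.2 and 365.6 and the ChAT- arrays 39.65, 44.47, 69.18 and 29.29. The probe was well above background on 4 of 4 ChAT+ arrays and on 1 of 4 ChAT- arrays, so the level in ChAT- pools sat at the detection limit. It met the filter of 4 arrays on its ChAT+ arrays alone, and the size of the difference therefore depends on how dim signals are treated. The group means were -2.97 ± 0.59 and -5.74 ± 0.30 (SD, n = 4), and Ccr4 rose by a fitted 2.77 (SE 0.29, 95% interval 2.12 to 3.42, limma adjusted p = 0.00296). The exact permutation p, two-sided, was 0.0286, the smallest that 4 pools against 4 can give. The SE, the interval and both p-values set detected ChAT+ signals against ChAT- readings that were mostly not well above background. The call was kept under all 20 alternatives in which Ccr4 could be fitted, with values of 1.70 to 3.03. The lowest value, 1.70, came with another background correction (normexp with quantile normalization). It was also kept without any one array, at 2.51 to 2.94 (limma adjusted p = 0.00331 to 0.0132).

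In these pools, fewer cells of a type and less RNA per cell cannot be told apart. The marker lists of cell types that a sort of spleen could hold differed between the groups, and their part in the Ccr4 difference was not tested. Of 12 NK cell markers 3 fell and 0 rose (median -0.55); their summed signal was 138 to 211 in ChAT+ and 214 to 258 in ChAT- pools, in units where an array's 75th percentile is 1. Klrb1c, which encodes NK1.1, fell by 1.60 (SE 0.13, adjusted p = 0.00103), Klrk1 fell by 1.14, and all 12 were above background in both groups. Without ChAT+ replicate 2, 5 of the 12 fell. Markers of T17, NKT and innate lymphoid type 2 or 3 cells moved the other way, with 6 of 12 higher and 0 lower (median 1.43) and a summed signal of 21.3 to 32.6 against 14.3 to 17. Il17f and Il17a, 2 cytokines of type 17 cells, rose by 3.74 and 3.18. Of 10 B cell markers 6 rose and 0 fell (median 0.88, summed signal 79.0 to 106 against 50.1 to 66.4), with Pax5 at 1.31 and Bank1 at 1.12.

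Among 12 T cell markers limma called 0. At an unadjusted limma p under 0.05, 2 were lower and 1 higher, beside 24.8% of all genes in either direction. The list had 5 means higher and 7 lower in ChAT+ pools (median -0.06, summed signal 22.3 to 37.9 against 24.5 to 35.9). All 12 were above background in both groups. The 2 with the lowest adjusted p, Cd247 and Cd28, differed by -0.82 and -0.57. Bcl11b, the 1 higher at an unadjusted limma p under 0.05, differed by 0.59. Without ChAT+ replicate 2 Cd247 and Cd28 passed (-0.999 and -0.76), and Cd247 also passed without ChAT- replicate 1 (-0.97). Basophil and mast cell markers fell in 5 of 7 cases and rose in 0 (median -4.04, summed signal 0.891 to 3.79 against 9.11 to 43.3). The count of those that fell was 3 without ChAT+ replicate 3 or ChAT- replicate 3 and 2 without ChAT- replicate 4. Hdc, the histidine decarboxylase, fell by 2.41, and Cd200r3 was at least 15.9-fold lower, because it was above background on no ChAT+ array. Ms4a2 was likewise not above background in ChAT+ pools. Of 6 dendritic cell markers 2 fell and 0 rose (median -0.14, summed signal 29.1 to 41.6 against 28.9 to 44.8), namely Itgax by 1.31 and Clec9a at least 2.16-fold. Clec9a did not pass without ChAT+ replicate 3 (limma adjusted p = 0.0609), and neither it nor Cd209a was above background on any ChAT+ array. Of 7 neutrophil markers 1 fell and 0 rose (median -2.10, summed signal 2.98 to 35.3 against 20.3 to 60.0): Retnlg was at least 3.68-fold lower, and lost its call without ChAT+ replicate 1 or 4 or ChAT- replicate 3 or 4 (limma adjusted p up to 0.0588). Ngp differed by -2.68 (adjusted p = 0.16). Of 7 monocyte and macrophage markers limma called 0, while 1 was lower and 1 higher when an unadjusted p of 0.05 was used (median -0.29, summed signal 4.73 to 6.34 against 5.73 to 8.36), with C1qa at -0.79 and Adgre1 at 0.77. In the NK cell, T17, B cell, basophil, dendritic and neutrophil lists the direction given as 0 also held 0 genes at an unadjusted p under 0.05 by limma.

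**Figure D2:**
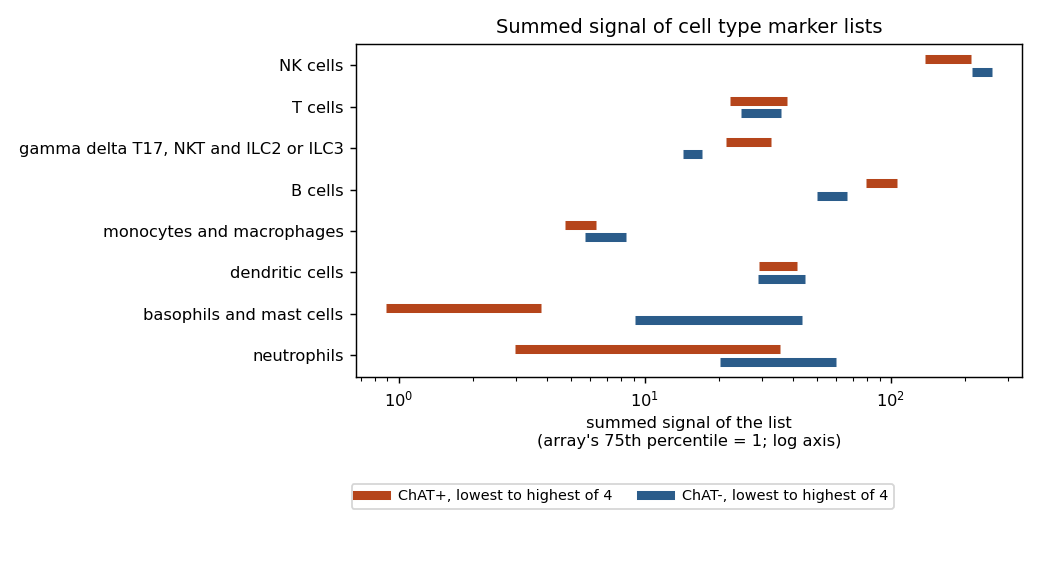
Range of the summed linear signal (array's 75th percentile = 1, log axis) of 8 cell type marker lists over 4 ChAT+ and 4 ChAT- pools, from the lowest to the highest pool. The basophil and mast cell list lies apart in the groups, at 0.891 to 3.79 against 9.11 to 43.3, and so do the NK cell list, lower in ChAT+ pools, and the B cell and T17, NKT and innate lymphoid lists, higher in them.

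Ccr8, the receptor for Ccl1 and another receptor of type 2 and regulatory T cells, was near the floor of the arrays. Probe A_55_P2103097 had log2 signals of -4.10, -6.06, -5.21 and -5.39 in ChAT+ replicates 1 to 4 and of -6.57, -6.93, -6.94 and -7.18 in ChAT- replicates 1 to 4. All ChAT+ values were higher (exact permutation p = 0.0286, two-sided), but only ChAT+ replicate 1 was well above background. The means of -5.19 and -6.91 therefore give no measured difference, because the other ChAT+ readings and all ChAT- readings were not well above background. The second probe, A_55_P2136348, was well above background on 0 of 8 arrays, and its ChAT+ range of -6.92 to -5.81 overlapped the ChAT- range of -7.29 to -6.44. Ccr8 and Cx3cr1 are neighbours in the RefSeq gene order on GRCm38.p6, and the Cx3cr1 mean was lower in ChAT+ pools.

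Cxcr3, the receptor for the interferon-induced chemokines Cxcl9, Cxcl10 and Cxcl11, had log2 signals of 1.49, 2.03, 2.11 and 1.78 in ChAT+ and of 1.03, 1.58, 1.23 and 1.45 in ChAT- replicates 1 to 4 (probe A_51_P319022). ChAT- replicate 2 lay above ChAT+ replicate 1, so the groups overlapped. The difference of 0.53 (SE 0.18, 95% interval 0.13 to 0.93) did not pass without a replicate block (limma adjusted p = 0.113, or 0.0357 with it). The exact permutation p, two-sided, was 0.0571.

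Cxcr6 binds the membrane-bound chemokine Cxcl16 and marks tissue-resident and NKT cells. Its brighter probe, A_55_P1962209, had log2 signals of 3.42, 4.00, 3.45 and 3.20 in ChAT+ and of 2.44, 3.21, 2.79 and 3.00 in ChAT- replicates 1 to 4. ChAT- replicate 2 lay just above ChAT+ replicate 4, so the groups overlapped. The difference was 0.66 (SE 0.21, 95% interval 0.17 to 1.14, limma adjusted p = 0.104, or 0.0265 with a replicate block). On the second probe, A_55_P2165199, the signals were 3.10, 3.73, 3.13 and 3.14 against 2.35, 2.97, 2.64 and 2.80. There all ChAT+ pools were higher, by 0.58 on average (exact permutation p = 0.0286, two-sided; limma adjusted p = 0.131 over all kept probes). Both probes thus had higher means in ChAT+ pools and neither passed without a replicate block. The second probe was not fitted with a block.

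Cxcr5 is the receptor for Cxcl13 that brings B cells and follicular helper T cells into B cell follicles. Its probe A_52_P70796 had log2 signals of 2.91, 3.20, 3.64 and 3.39 in ChAT+ and of 2.38, 2.46, 2.42 and 2.91 in ChAT- replicates 1 to 4. Before rounding, the lowest ChAT+ pool was just above the highest ChAT- pool, which was replicate 4. Cxcr5 differed by 0.74 (SE 0.19, 95% interval 0.32 to 1.16), a 1.67-fold higher mean, and missed the threshold narrowly (limma adjusted p = 0.0515). It passed under 6 of 21 alternatives. The B cell markers, of which 6 of 10 rose, moved with it, and their part in the Cxcr5 difference was not tested.

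Ccr7, which binds Ccl19 and Ccl21 and leads cells into the T cell zones, had log2 signals of 4.57, 4.64, 4.37 and 4.15 in ChAT+ and of 4.66, 4.50, 3.78 and 4.11 in ChAT- replicates 1 to 4 (probe A_55_P2023542). The groups overlapped almost fully, and the difference was 0.17 (SE 0.21, 95% interval -0.30 to 0.64, limma adjusted p = 0.656). With these 8 pools that interval spanned both signs, so neither the direction nor the size of a Ccr7 difference was settled.

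Cxcr4, the receptor for Cxcl12, had log2 signals of 1.90, 1.55, 1.62 and 1.97 in ChAT+ and of 2.08, 2.07, 2.32 and 2.38 in ChAT- replicates 1 to 4 (probe A_52_P585124). All ChAT+ pools were below all ChAT- pools, by a small margin between ChAT+ replicate 4 and ChAT- replicate 2. The difference of -0.45 (SE 0.14, 95% interval -0.78 to -0.13) did not pass over all genes (limma adjusted p = 0.0948; exact permutation p = 0.0286, two-sided, unadjusted). With each array centred on its median it was -0.24, in a scaling that put the median of all genes at 0.24.

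Ccr2, the receptor for Ccl2, had log2 signals of 2.26, 3.24, 2.45 and 2.72 in ChAT+ and of 2.79, 3.71, 3.24 and 3.27 in ChAT- replicates 1 to 4 (probe A_51_P245989). The groups overlapped, and replicate 2 was the highest of both. The difference was -0.59 (SE 0.25, 95% interval -1.15 to -0.02) and did not pass without a replicate block (limma adjusted p = 0.186, or 0.0188 with it). The exact permutation p, two-sided, was 0.0571.

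Cx3cr1, the receptor for Cx3cl1 (fractalkine), had log2 signals of -2.08, -3.92, -2.59 and -2.62 in ChAT+ and of -1.83, -3.07, -1.85 and -1.84 in ChAT- replicates 1 to 4 (probe A_55_P2007964). Replicate 2 was the lowest pool of each group, and the groups overlapped through it. The difference was -0.65 (SE 0.42, 95% interval -1.60 to 0.29, limma adjusted p = 0.368, or 0.021 with a replicate block). The dimmer probe A_52_P99810, above background on 1 of 4 ChAT+ and 2 of 4 ChAT- arrays, read -4.41, -6.74, -5.74 and -4.91 against -4.93, -6.58, -4.40 and -3.98, again with replicate 2 lowest in each group. It was not kept for testing.

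**Figure D3:**
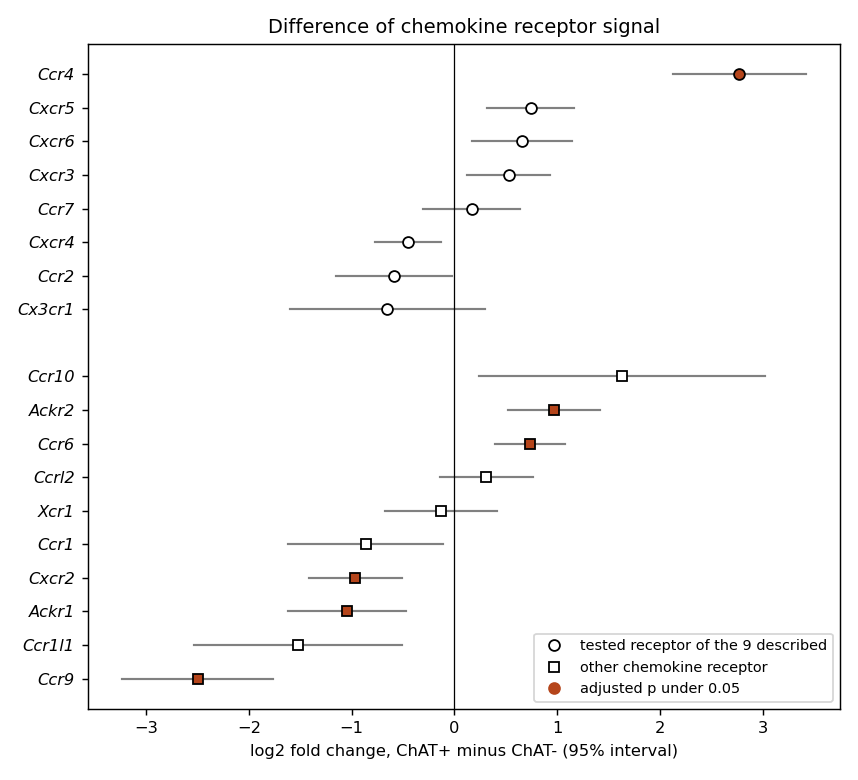
Log2 fold change (ChAT+ minus ChAT-, with the 95% interval) of the 8 tested receptors of the 9 described (circles) and of 10 other chemokine receptors (squares), filled where the limma adjusted p was under 0.05. Ccr4 stands at 2.77 and Ccr9 at -2.50, and both intervals are far from 0. The Ccr4 interval rests on ChAT- readings that were mostly not well above background.

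Among 15 other chemokine receptor genes, 10 were tested, 2 rose and 3 fell (median -0.50). Ccr9, which guides cells to the gut and thymus through Ccl25, moved most: its log2 signals were -0.97, -2.48, -2.17 and -2.16 in ChAT+ and 0.93, 0.78, 0.15 and 0.35 in ChAT- replicates 1 to 4. It fell by 2.50 (SE 0.33, limma adjusted p = 0.00671), and the call was kept without any one array but not without both arrays numbered 3 (limma adjusted p = 0.063). Ccr6, the receptor for Ccl20 on type 17 and B cells, rose by 0.74 (SE 0.15, limma adjusted p = 0.0293), from 2.53 ± 0.25 to 3.26 ± 0.15 (SD, n = 4). Ackr2, a decoy receptor that takes up inflammatory chemokines, rose by 0.97 (adjusted p = 0.0298). Cxcr2, the neutrophil receptor, fell by 0.96 (adjusted p = 0.03), and Ackr1, a decoy receptor known from red cells and venules, fell by 1.05 (adjusted p = 0.0459). These last 4 calls were each lost when any 1 of several arrays was left out, while the differences kept their sign. All 4 were also lost without a filter on dim probes. Median scaling lost the calls of Ccr6, Cxcr2 and Ackr1 (limma adjusted p = 0.0621, 0.157 and 0.0932). Quantile normalization lost those of Cxcr2 and Ackr1 (limma adjusted p = 0.0698 and 0.0531). The Ackr1 call was lost under 14 of 21 alternatives. The calls of Ccr6 and Ackr2 were lost without ChAT+ replicate 1, 3 or 4 or without ChAT- replicate 2, 3 or 4 (limma adjusted p up to 0.0866 and 0.0869). That of Cxcr2 was lost without ChAT+ replicate 1 or 4 or ChAT- replicate 2, 3 or 4 (up to 0.0714), and that of Ackr1 without any array but ChAT- replicate 1 (up to 0.129).

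Several of these genes are neighbours. In the RefSeq order on GRCm38.p6 the run reads Ccr9, Fyco1, Cxcr6, Xcr1, Ccr1, Ccr1l1, Ccr3 and Ccr2. Its ends at Ccr9 and Ccr2 were set by choice, and genes beyond them were not looked at here. Of the 6 receptors of the run that were tested, 5 had lower means in ChAT+ pools, namely Ccr9 (-2.50), Ccr1l1 (-1.52), Ccr1 (-0.86), Ccr2 (-0.59) and Xcr1 (-0.13). Cxcr6, at 0.66, was the member of the run with a higher mean. Ccr9 alone passed. A test of Cxcr6 against its neighbours was not run.

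The ligands of the 9 receptors gave 1 call among 8 tested, with 0 lower (limma; also 0 at an unadjusted p under 0.05) and a median of 0.29. Cxcl9, a ligand of Cxcr3, rose by 1.12 (SE 0.25, limma adjusted p = 0.0379), from 2.44 ± 0.52 to 3.56 ± 0.25 (SD, n = 4). It did not pass without ChAT+ replicate 1, 3 or 4 or ChAT- replicate 2, 3 or 4 (limma adjusted p up to 0.105). The ligands of Ccr4 were measured in both groups without a call, Ccl22 at -0.41 (limma adjusted p = 0.35) and Ccl17 at 0.31 (0.672). Ccl1, the ligand of Ccr8, and Cxcl12 and Cxcl13, those of Cxcr4 and Cxcr5, were not tested because too few arrays read them above background.

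Downstream of the receptors, 32 genes of G protein, arrestin, kinase and integrin signalling were tested. Here limma called 0. At an unadjusted limma p under 0.05, 5 were lower and 0 higher, beside 24.8% of all genes in either direction. Under 9 of 21 alternatives limma called genes of this list lower, up to 3 of them, and 2 without ChAT- replicate 1. The median was -0.15, with 8 means higher and 24 lower in ChAT+ pools. The 2 brightest, the small GTPase Rac2 and the G protein subunit Gnb1, differed by -0.24 and -0.19 (limma adjusted p = 0.287 and 0.352), and Gnb1 changed sign to 0.02 with median scaling and to 0.03 with normexp. Closest to passing were Grk5, a kinase that desensitises receptors (-0.55, limma adjusted p = 0.0511), and the integrin chain Itgb2 (-0.55, 0.0598), both named after their values were seen.

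Genes with the profile most like that of Ccr4 were found by the root mean square distance between the 8 log2 values, each gene centred on its own mean. The nearest were Trpm6, a magnesium channel, at 0.231, the transcription factor Hlf at 0.353 and Areg, which encodes the growth factor amphiregulin, at 0.437. Trpm6 went from -5.68 ± 0.22 in ChAT- to -3.24 ± 0.54 in ChAT+ pools (SD, n = 4) and, like Ccr4, was above background on 1 of 4 ChAT- arrays. Hlf went from -3.42 ± 0.44 to -1.003 ± 0.64 and Areg from -1.98 ± 0.66 to 0.62 ± 0.57, both above background on all arrays. These genes were picked for their likeness, so the differences are given as a description.

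**Figure D4:**
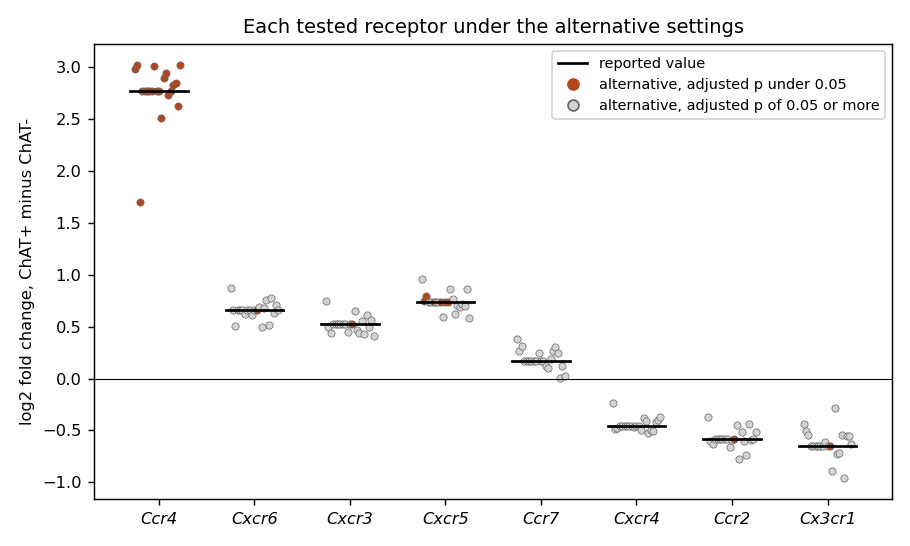
Log2 fold change (ChAT+ minus ChAT-) of each tested receptor as reported (line) and under each alternative of processing, filter, test or left-out array (points, filled red where the limma adjusted p was under 0.05). All Ccr4 points are red, from 1.70 to 3.03. They rest on ChAT- readings that were mostly not well above background, and the filter at all 8 arrays gives Ccr4 no point. Cxcr5 has 6 red points, Cxcr6, Cxcr3, Ccr2 and Cx3cr1 have 1 each, and no receptor has points on both sides of 0.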

How the data were processed

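RNA of 8 pools was hybridised to 1-colour (Cy3) Agilent arrays after 100 ng of total RNA had been amplified by in vitro transcription, per the labels' protocols. The deposited scanner files hold spot intensities, which Agilent Feature Extraction 11.5.1.1 had background-subtracted within each array, per the file headers. The deposited value table holds log2 values of 31942 probes, which equal the log2 processed intensity minus the 75th percentile of the array up to a constant of 0.0023 to 0.0065. Its column medians are -0.72 to -0.63, and it is not centred per gene.

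Control spots were left out. Of 1344 flagged spot values, those of probes whose spots were all flagged (51 probe values) were kept and the others left out. Of 55681 probes, 26762 were named with 1 symbol through RefSeq accessions (GRCm38.p6 table) and 28919 were not named here. The array was designed on mm9, so no probe is placed on a genome; the coordinates of promoters and the order of neighbouring genes are RefSeq's, on GRCm38.p6. Spots were averaged, signals scaled to the 75th percentile, and the 32086 probes kept that 4 or more of the 8 arrays read well above background. The brightest kept probe stood for its gene (13607 genes). limma 3.58.1 in R 4.3.3 (lmFit, eBayes, two-sided, Benjamini-Hochberg over all genes, adjusted p under 0.05) compared the groups without a block, and was tested on simulated data. The exact permutation test used the 70 divisions of the arrays. Above background stands for well above it throughout. A lower bound ("at least") is printed for genes with no probe well above background on any array of 1 whole group. The probe must also be above background on all 4 arrays of the other group. The bound is the mean of the brighter group over a floor averaged over the arrays of the dim group. That floor is the probe's own signal or the array's lowest signal above background, whichever is larger. Precision is limited by the number of arrays.

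The receptors and lists were chosen with earlier results of these data known. The genes named are all members, every called gene of a pathway list (or its 2 brightest), the 2 markers of each list with the lowest adjusted p, and the 3 profiles nearest to a called member; provisional gene names were left out. Other genes were named after their values were seen. One gene of the lists is not reported here. Alternatives covered scaling, background correction (normexp on the median spot signal, offset 50), filter, probe choice, variance model, array weights, the deposited table, a replicate block and each array left out. Leaving out both arrays numbered 3 was added after seeing the data.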

Additional observations from a re-analysis of the deposited data

Results flagged for a closer look

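In 5 of the 88 groups of 4 pools examined, 1 pool stood apart from the other 3 by more than Dixon's 95% critical value for its gap divided by the range of the group; chance does this in about 1 of 20 groups. For Cx3cr1 (probe A_55_P2007964) it was ChAT- replicate 2, at -3.07 with the next pool at -1.85 (0.98). For Cxcr5, ChAT- replicate 4 was high, at 2.91 with the next at 2.46 (0.857). On the second Cxcr6 probe (A_55_P2165199), ChAT+ replicate 2 was high, at 3.73 with the next at 3.14 (0.95). For C5ar1, ChAT- replicate 2 was high, at -3.62 with the next at -4.68 (0.858). For Ngp, a neutrophil granule gene, the same pool was low, at -0.62 with the next at 2.14 (0.867).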

How the results depend on the processing

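Ccr4 kept its direction and its call under all 20 alternatives in which it could be fitted (limma adjusted p = 1.02e-04 to 0.0247); with the filter at all 8 arrays it was not tested, and the 1 receptor called was then Cxcr5. The receptors called higher numbered 2 with quantile normalization, normexp, the trended and robust variance or the deposited table, each adding Cxcr5. They also numbered 2 with the filter at 1 of 8 arrays. The addition there, Ccr8, enters through 1 ChAT+ array with no ChAT- array well above background, so it is no measured difference. With the replicate block they numbered 4 higher (Ccr4, Cxcr5 at a limma adjusted p = 0.0187, Cxcr6 at 0.0265 and Cxcr3 at 0.0357) and 2 lower (Ccr2 at 0.0188 and Cx3cr1 at 0.021), 6 of 12 NK cell markers were lower, and all genes 1002 higher and 1340 lower; the correlations of same-numbered deviations were 0.539, 0.661, 0.519 and 0.0323, and 6 of 8 arrays were closest to their own number. These values hint that pools of a number shared something, but the pair numbered 4 did not deviate together and the labels name nothing shared. The calls reported therefore come from the fit without the block. Leaving out single arrays gave 1 receptor higher and 0 lower each time, and a Chat difference of 0.99 to 1.26. Chat did not pass without a filter (1.105, adjusted p = 0.0532) or without both arrays numbered 3 (1.00, 0.118). Gnb1 turned to 0.025 with median scaling and 0.026 with normexp. Over all genes, calls higher and lower were 98 and 125 without a filter, 208 and 248 with every kept probe, 577 and 639 with array weights, 647 and 486 with normexp, 211 and 119 with median scaling (which moved the median of all genes from 0.03 to 0.24 and the share of higher calls from 47.2% to 63.9%), and 21 and 35 without both arrays numbered 3. Single arrays left out gave 94 to 306 and 116 to 425. The cause was not tested. Ccr8, Ccr4 in ChAT- pools and the second Cx3cr1 probe are limited by signal over background.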

Other observations

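Receptors outside the chemokine family that also steer leukocytes gave calls in both directions, 1 higher and 3 lower of 15 tested (median -0.13). Cysltr1, a receptor for cysteinyl leukotrienes, had log2 signals of 0.42, 0.10, -0.35 and 0.08 in ChAT+ and of -2.63, -2.35, -2.25 and -2.85 in ChAT- replicates 1 to 4. It rose by 2.58 (SE 0.20, limma adjusted p = 6.6e-04), and all 21 alternatives kept the call. C5ar1, the receptor for complement fragment C5a, was above background on 0 of 4 ChAT+ and 4 of 4 ChAT- arrays. It was at least 1.74-fold lower in ChAT+ pools, and its limma adjusted p of 0.0157 rests on ChAT+ readings not well above background. Selplg, the selectin ligand PSGL-1, fell by 0.69 (limma adjusted p = 0.0318) but did not pass without ChAT+ replicate 1, 3 or 4 or ChAT- replicate 2, 3 or 4 (up to 0.084). Gpr34, a lysophosphatidylserine receptor, fell by 1.27 (0.039) and did not pass without any array but ChAT- replicate 2 (up to 0.116). S1pr5, which lets NK cells leave lymph nodes and bone marrow, differed by -0.95 and missed the threshold (limma adjusted p = 0.0519).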
